A study of Mus musculus with 2 samples.

Results

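The mitochondrial ribosomal proteins are encoded by nuclear genes, and 78 protein-coding mouse genes have a symbol that starts with Mrpl or Mrps followed by a digit. Pseudogenes with symbols ending in -ps were left out. Of these genes, 77 had a row in both gene tables, out of 43346 genes and 21474 protein-coding genes in all. They comprise 48 large subunit genes (Mrpl) and 29 small subunit genes (Mrps). Mrpl33, on chromosome 5, had no row under its identifier, so its level is not analysed here, and it enters only the counts of promoters and positions. No measured value enters this rule, although it was set with earlier results of these data known.

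Mitochondria keep their own ribosome, the mitoribosome, which translates the mRNAs of the mitochondrial genome. Those mRNAs encode core subunits of the respiratory chain and of ATP synthase, so neurons, whose firing and synapses depend on oxidative phosphorylation, rely on it. Its rRNAs are transcribed inside the mitochondrion from the mitochondrial DNA. All of its proteins are made in the cytosol and imported. Some of them descend from bacterial ribosomal proteins, and others were added in the mitochondrial lineage. Defects of several of these genes cause combined oxidative phosphorylation deficiency in humans.

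RNA-seq was carried out on 2 libraries of a single group. Each library came from a pool of 50 pyramidal neurons of cortical layer V of wild type male mice aged 8 months, with no treatment or genetic alteration named. Cells were isolated by laser capture and libraries followed a Smart-seq protocol, a full-length cDNA method, with spike-in RNA added. The strain is written as B6NCrl in one label and as C57Bl5 or C57Bl6 in others. Both libraries carry the same donor identifier, so the spread between them measures 2 pools and may be technical. With 1 group there was no comparison of conditions, and the values below are levels, differences between gene lists and differences between the pools.

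The libraries held 24171434 estimated reads in replicate 1 and 27946180 in replicate 2, of which spike-ins took 4.28% and 5.32%. Levels are given in TPM, in which reads are divided by transcript length and scaled to a fixed total per library. All 6 layer 5 markers were detected, at a level of at least 1 TPM, in both pools, and their levels summed to 2301 TPM in replicate 1 and to 4756 in replicate 2. Pcp4 alone had 2134 and 4468 TPM of these sums. Crym and Bcl11b were lower in replicate 2, whereas the other layer 5 markers were higher. The 4 glutamatergic markers summed to 553 and 744 TPM, and the 4 pan-neuronal markers to 7707 and 9712 TPM. Nrgn alone had 335 and 521 TPM of the glutamatergic sums. Neurod6 was lower in replicate 2 (103 and 89.5 TPM), whereas the other glutamatergic markers were higher. Markers of other cells were present as well. The 6 interneuron markers summed to 3871 TPM in replicate 1, with all 6 detected, and to 1491 TPM in replicate 2, with 5 detected. Sst alone had 2506 and 844 TPM of these sums. Astrocyte markers (4 genes) summed to 326 and 369 TPM, oligodendrocyte markers (4) to 414 and 532, microglial markers (4) to 94.8 and 36.5, endothelial markers (3) to 39.1 and 49.8, and erythroid markers (3) to 3.9 and 204, with replicate 1 first in each pair. Aldoc alone had 272 and 326 TPM of the astrocyte sums. Slc1a3 (45.6 and 37.0) and Aqp4 (6.23 and 3.58) were lower in replicate 2, and Gfap (1.61 and 2.21) was higher. The share of the mitoribosomal reads that came from such other cells was not tested. Fewer cells of a type and less RNA per cell cannot be told apart in pooled samples.

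Every one of the 77 mitoribosomal protein genes stood at 10 TPM or more in both pools. Their median level was 104 TPM in replicate 1, against 112 TPM in replicate 2 (108 ± 5.42 TPM, SD, n = 2). Levels ranged between 22.2 and 571 TPM in replicate 1 and between 18.9 and 444 TPM in replicate 2, a 25.8-fold and a 23.5-fold range. For scale, 5.7% of protein-coding genes in replicate 1 and 5.4% in replicate 2 were at or above the genes' median level, and 19.5% and 21.7% were at or above their lowest level. The median over all protein-coding genes was 2.02 TPM and 1.84 TPM. Together the 77 genes took 0.666% of gene reads in replicate 1 and 0.656% in replicate 2 (0.661% ± 0.007, SD, n = 2). Between 702 and 5556 reads lay behind each gene in replicate 1 and between 829 and 5279 in replicate 2.

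**Figure D1:**
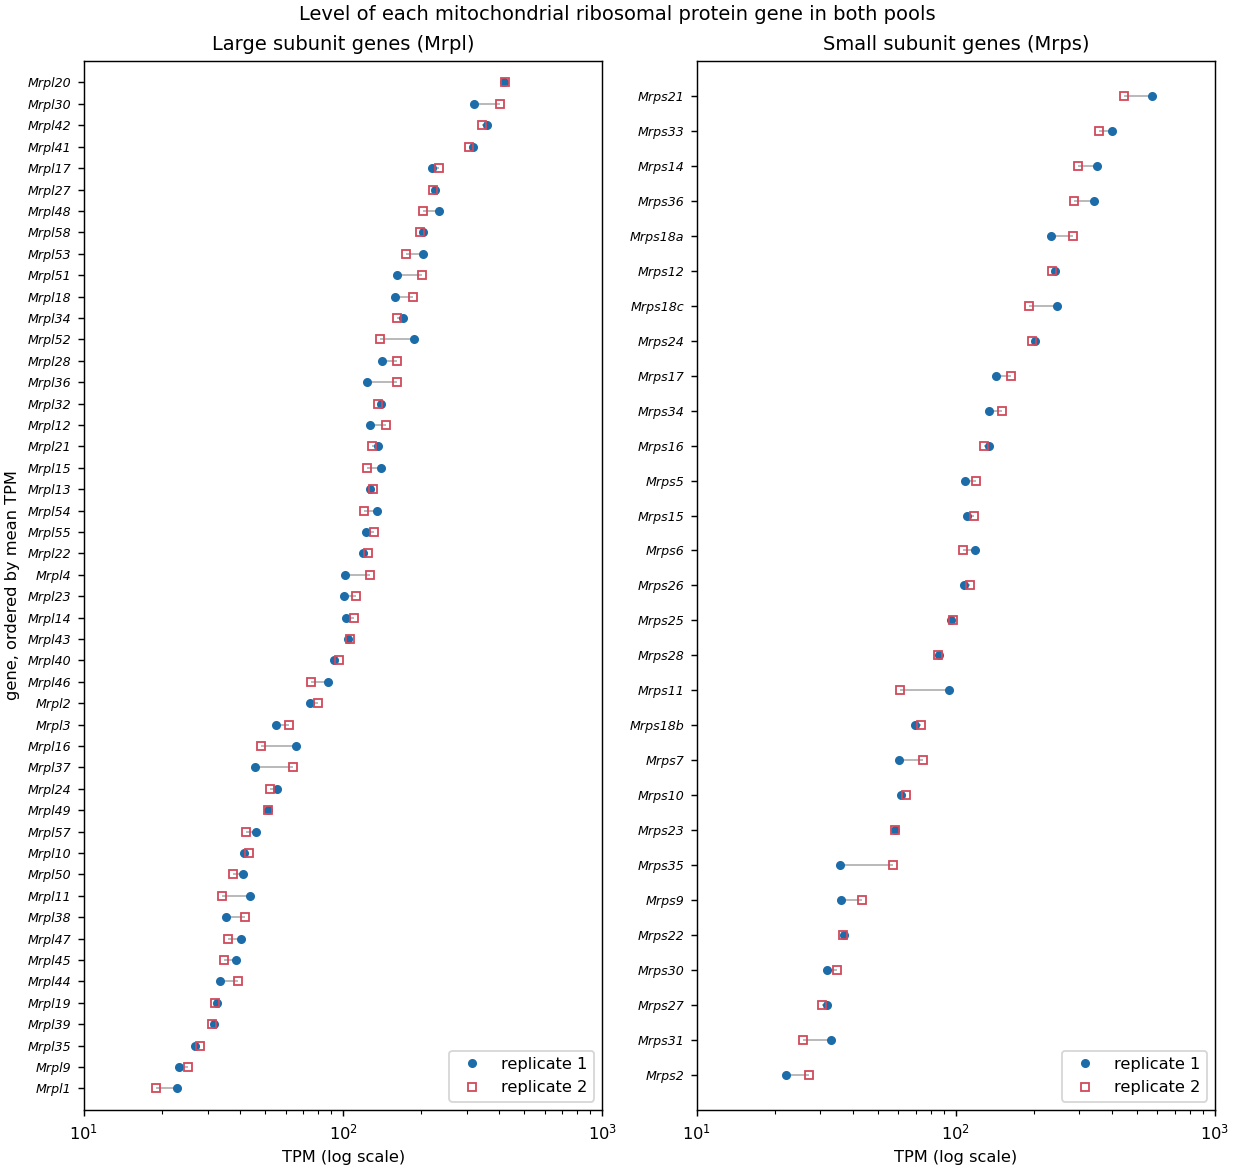
Level of each of the 48 large subunit genes (left) and 29 small subunit genes (right) in TPM on a log scale, with replicate 1 as filled circles, replicate 2 as open squares and a line joining the pools. The genes run between 18.9 and 571 TPM, and the 2 values of a gene lie close together, with Mrps35 and Mrps11 the farthest apart.

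At the top of the order was Mrps21, a small subunit gene on chr3:95862634-95871519 (minus strand, GRCm38), with 571 TPM in replicate 1 and 444 TPM in replicate 2. Mrpl20, which encodes a large subunit protein with a bacterial counterpart, followed with 419 TPM in replicate 1, against 420 in replicate 2, and each later pair of TPM values is in this order. The ranges of these 2 genes over the pools did not overlap each other or those of the genes below them. Mrps33 (401 and 356 TPM), Mrpl30 (319 and 403), Mrpl42 (360 and 345), Mrps14 (350 and 297), Mrps36 (340 and 285) and Mrpl41 (316 and 307) formed the next group, and within it neighbouring genes overlapped. Mrps12, whose protein lies at the decoding site of the small subunit, had 241 and 235 TPM, and Mrps18a had 234 and 282 TPM. In all, 42 genes had a mean of at least 100 TPM.

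The low end was held by Mrpl1, whose protein forms the mobile stalk at the tRNA exit side, with 22.9 TPM in replicate 1 and 18.9 TPM in replicate 2. Mrpl9 had 23.4 and 25.2 TPM, and Mrps2 had 22.2 and 27.1 TPM. Over the pools, the range of Mrps2 overlapped those of Mrpl1 and Mrpl9, whereas the ranges of Mrpl1 and Mrpl9 did not overlap. Mrpl35 (26.9 and 28.1 TPM), Mrps31 (33.0 and 25.8), Mrps27 (31.9 and 30.5), Mrpl39 (31.8 and 31.3), Mrpl19 (32.6 and 32.1), Mrps30 (31.9 and 34.7) and Mrpl44 (33.6 and 39.4) complete the 10 lowest. The mean lay under 50 TPM for 20 genes. The most and least abundant genes therefore include proteins of both subunits and, in each case, proteins with a bacterial counterpart.

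The promoters of these genes were read from RefSeq on GRCm38.p6 as windows of 250 bases before to 50 after each annotated start, because nuclear genes of mitochondrial proteins are known to share transcription factors such as NRF1 and the GA-binding protein. Windows were found for 69 of the 78 genes, 75 windows in all. The windows were searched on both strands for the letters GCGCA, any base and GCGC in a row (NRF1, a factor known for nuclear genes of mitochondrial proteins), CCGGAAG (ETS factors, among them the GA-binding protein), AAGATGGCG (YY1) and TATAAA (the TATA box). Matches of different motifs may share bases. The windows of 3 genes that recur in the results are shown, with matched letters in capitals, written 5′ to 3′ on the strand of the gene. The most abundant gene, Mrps21 (chr3:95871465-95871764, minus strand), holds both the NRF1 and the ETS letters.
Mrps21: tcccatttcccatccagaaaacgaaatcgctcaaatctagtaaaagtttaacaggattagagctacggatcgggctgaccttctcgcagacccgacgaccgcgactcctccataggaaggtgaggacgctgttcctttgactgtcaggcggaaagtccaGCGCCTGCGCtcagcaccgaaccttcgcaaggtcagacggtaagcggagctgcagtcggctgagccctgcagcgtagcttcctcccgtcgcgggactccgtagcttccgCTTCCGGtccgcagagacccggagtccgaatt
Mrps12 (chr7:28741772-28742071, minus strand), which shares its upstream region with the gene of the mitochondrial seryl-tRNA synthetase, holds the ETS letters near its start.
Mrps12: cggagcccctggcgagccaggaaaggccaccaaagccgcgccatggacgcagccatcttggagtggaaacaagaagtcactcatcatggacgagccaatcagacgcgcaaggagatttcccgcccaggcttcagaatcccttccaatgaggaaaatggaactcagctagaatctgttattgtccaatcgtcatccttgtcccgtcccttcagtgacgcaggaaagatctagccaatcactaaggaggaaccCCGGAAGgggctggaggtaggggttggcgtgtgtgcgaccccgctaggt
Mrps11 (chr7:78782881-78783180, plus strand), which differed most in the direction of replicate 1 between the pools and starts inside another gene of the family, holds the YY1 letters on the opposite strand.
Mrps11: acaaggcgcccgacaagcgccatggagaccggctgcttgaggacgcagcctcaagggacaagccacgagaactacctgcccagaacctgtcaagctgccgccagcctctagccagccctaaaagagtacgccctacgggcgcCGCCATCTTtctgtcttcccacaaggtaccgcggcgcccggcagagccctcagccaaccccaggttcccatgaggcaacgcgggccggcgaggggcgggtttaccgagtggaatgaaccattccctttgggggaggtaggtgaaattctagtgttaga

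Across the 75 windows, the ETS letters were in 34.7%, the NRF1 letters in 17.3% and the YY1 letters in 10.7%, while TATAAA was in 6.7%. Over all 21263 windows of protein-coding genes the shares were 11.6%, 6.4%, 1.8% and 12.6% in the same order. Over the 4585 windows of protein-coding genes at or above the level of the lowest mitoribosomal gene they were 19.4%, 12.3%, 3.5% and 7.1%. The shares of the ETS and YY1 letters were thus higher in the family than in that set, which has no upper limit of level. The NRF1 letters differed less, with 17.3% against 12.3%, and the share of TATAAA was close to that set, with no test made. By gene, 26 of 69 (37.7%) had ETS letters, 13 (18.8%) had NRF1 letters and 8 (11.6%) had YY1 letters. In the same order the shares were 23.6%, 15.0% and 4.4% of 3470 genes at or above the lowest mitoribosomal gene. Over all 17492 protein-coding genes with a window they were 12.9%, 7.2% and 2.1%. In the family, 4 genes had NRF1 and ETS letters in the same window, and 28 had no match to the NRF1, ETS or YY1 letters. Neither of these counts was made for other genes. The median number of CG dinucleotides per window was 21, against 13 over all protein-coding genes and 21 over the 4585 windows. A match describes the letters only, and binding was not measured in these samples.

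The subunits of the ribosome had nearly the same level. Taken by symbol, the 48 large subunit genes had medians of 103 and 116 TPM, with replicate 1 first. The 29 small subunit genes had medians of 107 and 107 TPM. The difference of median log2(TPM + 1), large minus small, was -0.06 in replicate 1 and 0.12 in replicate 2 (0.03 ± 0.12, SD, n = 2). This is within the spread between the pools, and the difference was -0.11 with means in place of medians. Not all Mrps genes encode small subunit proteins, as described below. With Mrps30 and Mrps18a placed in the large subunit and Mrps36 left out, the difference of medians was 0.10. Large subunit genes took 0.406% and 0.407% of gene reads, and small subunit genes took 0.259% and 0.249%.

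Genes with a bacterial counterpart had a higher median level than those without. The 46 genes of the first kind had medians of 119 and 124 TPM, against 87.2 and 85.4 TPM for the 31 genes of the second kind, which are called mitochondria-specific here. The difference was 0.49 ± 0.07 on the log2(TPM + 1) scale (SD, n = 2) and had the same sign in both pools, and it was 0.26 when means over the genes replaced medians. The upper quartile did not follow, at 155 and 163 TPM with a counterpart against 174 and 163 TPM without. Medians differed in the same direction within each subunit. In the large subunit the medians were 119 and 125 TPM for 29 genes with a counterpart, against 92.5 and 96.1 TPM for 19 without. Upper quartiles in the large subunit went the other way, at 140 and 161 TPM with a counterpart and 195 and 186 TPM without. In the small subunit the medians were 119 and 120 TPM for 17 genes, against 72.3 and 71.8 TPM for 12. Upper quartiles there were 234 and 196 TPM, against 114 and 122 TPM. Transcript length moved with this split, with a median of 897 bases for genes with a counterpart and 1179 bases for mitochondria-specific genes, and its part in the difference was not tested.

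Several genes carry a symbol that does not match the place or role of the protein known from mammalian mitoribosomes. The products of Mrps18a and Mrps30 sit in the large subunit, and that of Mrps36 is a component of the 2-oxoglutarate dehydrogenase complex. Among the 3 paralogs that share the Mrps18 name, Mrps18c had 246 and 192 TPM, Mrps18a had 234 and 282 TPM, and Mrps18b had 69.4 and 73.4 TPM. Mrps18b was lower than either paralog in both pools, whereas the ranges of Mrps18a and Mrps18c overlapped. Mrpl12, whose product forms the flexible stalk that recruits translation factors, had 127 and 147 TPM. Mrpl58, which encodes a peptidyl-tRNA hydrolase built into the large subunit, had 203 and 198 TPM, and Mrpl57 had 46.1 and 42.1 TPM.

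Of the 12 genes taken as human combined oxidative phosphorylation deficiency genes, the levels spanned most of the range of the family. Mrps14 was highest with 350 and 297 TPM, then Mrps34 (135 and 151), Mrpl12 (127 and 147) and Mrps16 (135 and 128). Mrps25 had 95.9 and 97.8 TPM, Mrps28 had 86.2 and 85.4, and Mrps7 had 60.2 and 74.5. Mrpl3 had 55.3 and 61.8 TPM, Mrps23 had 58.4 and 58.2, Mrps22 had 37.1 and 36.6, Mrpl44 had 33.6 and 39.4, and Mrps2 had 22.2 and 27.1. Most genes on this list encode small subunit proteins, and 2 of them, Mrps2 and Mrpl44, were among the 10 lowest of the family.

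A further 5 proteins of the mitoribosome are encoded by genes with other symbols. Aurkaip1 had 225 and 238 TPM and Chchd1 had 233 and 182 TPM, both as high as the upper members of the family. Dap3, the GTP-binding protein of the small subunit, had 95.5 and 89.2 TPM. Ptcd3, a pentatricopeptide repeat protein at the mRNA channel, had 32.9 and 32.7 TPM, and Gadd45gip1, a large subunit protein, had 26.1 and 26.4 TPM. All 5 therefore fell inside the range of the Mrpl and Mrps genes.

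The genes that serve mitochondrial translation without being part of the ribosome were lower. Mitochondrial translation factors (14 genes) had medians of 18.7 and 19.2 TPM, and the difference, mitoribosomal genes minus factors, was 2.45 ± 0.04 on the log2(TPM + 1) scale (SD, n = 2). Slirp, which stabilises mitochondrial mRNAs as a partner of Lrpprc, had 289 and 251 TPM and stood apart from the rest of that list. Elongation factor genes Tsfm (47.4 and 39.8 TPM) and Tufm (37.1 and 58.5) came next, and the lowest were Mtfmt, the formyltransferase for the initiator tRNA (8.06 and 10.9), and Taco1, the translational activator of mt-Co1 (4.16 and 7.70). Assembly and rRNA modification genes (23) had medians of 10.4 and 12.5 TPM. Within that list Malsu1, a factor of large subunit assembly, had 61.1 and 48.2 TPM, Rbfa had 47.8 and 54.1, and Ngrn had 42.2 and 39.6, while Rcc1l had 5.71 and 5.52 and Gtpbp10 had 5.34 and 4.41.

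Mitochondrial aminoacyl-tRNA synthetases (17 genes) had medians of 8.42 and 10.1 TPM. Lars2, for leucine, was far above the others with 283 and 249 TPM, followed by Yars2, for tyrosine (30.8 and 36.8), and Rars2, for arginine (37.0 and 25.2), and the lowest were Vars2 (2.62 and 1.88) and Mars2 (2.39 and 1.92). The 7 genes of mitochondrial DNA transcription had medians of 11.97 and 18.4 TPM, with Tfb2m at 27.5 and 26.5, Mterf2 at 35.1 and 19.4, the packaging and activating factor Tfam at 25.3 and 27.5, and Mterf1b at 2.14 and 0.52. These lists also hold longer transcripts. Median length was 967 bases for the mitoribosomal genes, against 1739 for the factors, 1466 for the assembly list, 2388 for the synthetases and 1565 for the transcription list.

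Compared with the cytosolic ribosome, the mitoribosomal genes were lower. For 82 genes taken by symbol as cytosolic ribosomal protein genes, median levels of 317 and 298 TPM were found. They include Rps19bp1 (57.25 and 63.41 TPM), which is named for a binding protein of Rps19 and not for a ribosomal protein. Mitoribosomal minus cytosolic, the difference was -1.60 in replicate 1 and -1.41 in replicate 2 on the log2(TPM + 1) scale (-1.50 ± 0.13, SD, n = 2). The difference was wider against the nuclear subunits of oxidative phosphorylation, most of which belong to complexes that also hold products of the mitoribosome. Those 85 genes had medians of 714 and 760 TPM, and the difference was -2.76 ± 0.01 (SD, n = 2). Both of these lists hold shorter transcripts than the 967 bases of the family, with median lengths of 660 bases for the cytosolic ribosomal and 658 bases for the oxidative phosphorylation genes, and the part of length in any of these list differences was not tested. Inside the mitochondrion, the 13 mRNAs that the mitoribosome translates had medians of 4755 and 3759 TPM. The rRNA genes of the mitoribosome, mt-Rnr1 for the small subunit and mt-Rnr2 for the large, were listed at 4376 and 5039 TPM and at 10539 and 9433 TPM. How well the cDNA method captured rRNA relative to mRNA was not measured, so these levels are not compared with those of the mRNAs.

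**Figure D2:**
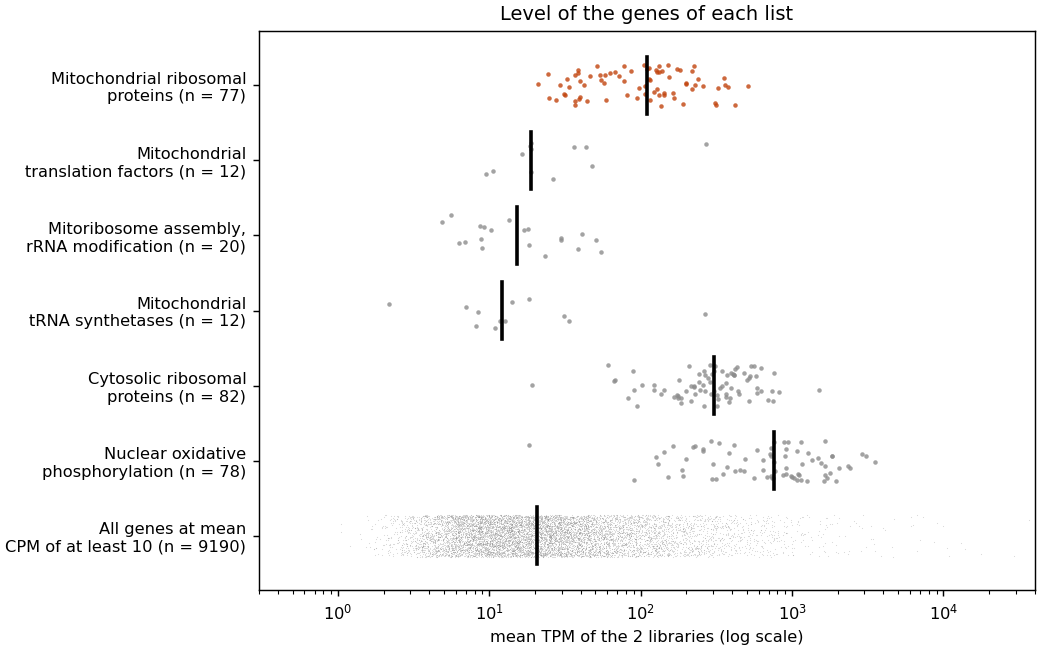
Mean TPM of the 2 libraries on a log scale for each gene (points) and the median of each list (bars), over genes at a mean of at least 10 CPM (counts scaled to library size). The 77 mitoribosomal protein genes lie between the cytosolic ribosomal protein genes and the translation factors, with the oxidative phosphorylation genes highest.

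Levels within the family were ordered by transcript length. Across the 77 genes, log2(TPM + 1) and log2 length had a Spearman rho of -0.83 in replicate 1 and -0.82 in replicate 2 (Pearson r of -0.83 and -0.82), as a description across genes that share 1 library. Over the 4376 protein-coding genes at or above the lowest mitoribosomal gene, rho was -0.39 and -0.38. TPM contains length as a divisor. The length used is that listed for the gene and not that of 1 transcript. For Mrps14 it was 887 bases, where its transcripts have 674, 787 and 2999 bases. How reads were divided among transcripts therefore bears on both length and TPM, and its part was not tested. With read counts in place of TPM, rho was -0.37 and -0.33 for the mitoribosomal genes, against 0.27 and 0.29 for the 4376 genes. Reads per gene were thus fewer for longer mitoribosomal genes and more numerous for longer genes of that set. The set was kept by a minimum TPM, so a longer gene needed more reads to enter it. The part of this filter in the contrast was not tested. The 39 genes of median length or shorter had medians of 161 and 162 TPM, and the 38 longer genes had medians of 44.8 and 45.8 TPM. Of the shorter genes 34 were above the median level of the family, against 4 of the longer ones.

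**Figure D3:**
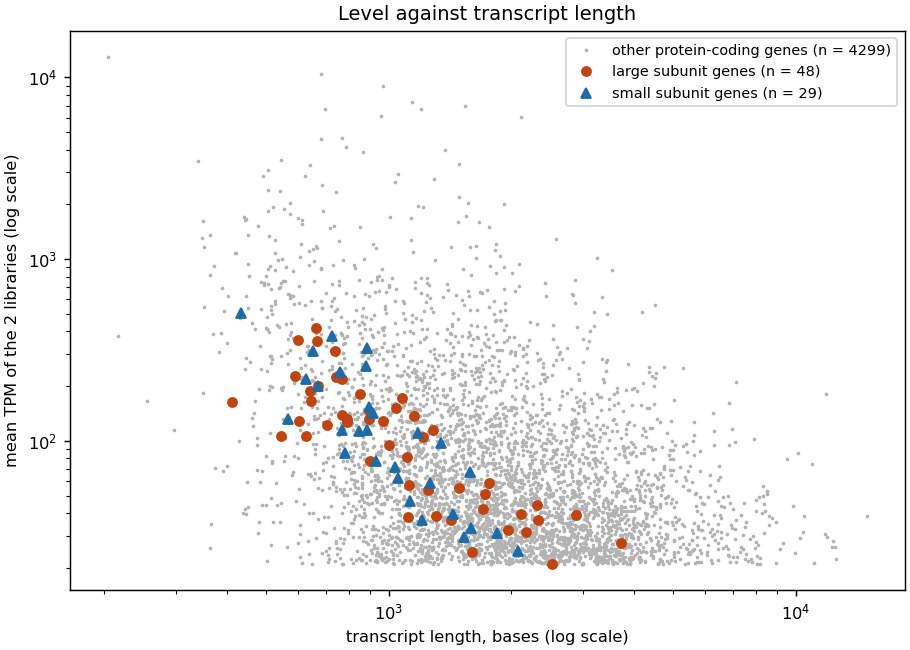
Mean TPM of the 2 libraries against transcript length in bases, both on log scales, for large subunit genes (circles), small subunit genes (triangles) and the other protein-coding genes at or above the lowest mitoribosomal gene (small grey points). Points of both subunits fall along the same slope from short and abundant (Mrps21, 435 bases) to long and less abundant (Mrpl35, 3715 bases).

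The family kept its order between the pools. Levels in replicate 1 and replicate 2 had r = 0.982 and rho = 0.981 across the 77 genes, against 0.950 and 0.920 across the 4376 genes, again as a description. The coefficient of variation of TPM over the 2 libraries had a median of 7.0% and reached at most 32.3%, for Mrps35. Ratios between the pools were computed from CPM, counts scaled to library size by TMM, as log2 of CPM + 1 in replicate 1 over replicate 2. None of the 77 genes was 2-fold or more apart, where 4.46% of 9190 genes at a mean CPM of at least 10 were, and 2.62% of the 4611 protein-coding genes inside the CPM range of the family (31.2 to 218). At a limit of 1.5-fold, set after the values were seen, the count was again 0, where 16.9% of all tested genes and 12.1% of the genes in the same CPM range passed. That count was 2 with ratios of deposited TPM (Mrps11 and Mrps35), where 16.5% of all tested genes passed, and 10 with spike-in scaling, where 27.0% passed. The SD of the log2 ratios was 0.22 for the family, 0.53 for all tested genes and 0.48 for protein-coding genes in the same CPM range. With 1 group and 2 libraries no test of a difference was made.

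The reads of the family summed to 153993 in replicate 1 and 173473 in replicate 2, which gave a scaled ratio of 0.992 (exact conditional 95% interval 0.985 to 0.999, counting error only). The median log2 ratio was -0.02, where that of all tested genes was -0.03, and 36 genes were higher in replicate 1 and 41 in replicate 2. That split was 40 higher in replicate 1 when libraries were scaled by their totals, and scaling by spike-ins moved the median of all tested genes to 0.33 and that of the family to 0.34, with 74 genes higher in replicate 1 and again none past 2-fold. Subunits did not separate, with medians of -0.03 for large and 0.00 for small subunit genes. By comparison, the cytosolic ribosomal protein genes had a median log2 ratio of 0.19, with 70 of 82 higher in replicate 1, and the mitochondrial mRNAs had 0.18, with 11 of 13 higher in replicate 1. The oxidative phosphorylation genes had a median of 0.03, with 44 of 78 tested genes higher in replicate 1 and 1 gene, Cox6a2, past 2-fold. Among the lower lists, 1 of 12 translation factors, 3 of 20 assembly genes and 4 of 12 synthetases were 1.5-fold or more apart. Of the cytosolic ribosomal protein genes 2 of 82 were, and of the oxidative phosphorylation genes 2 of 78. The SD of the log2 ratios was 0.18 and 0.25 in these lists. It was 0.16 for the 5 mitoribosome genes with other symbols, with 0 past 1.5-fold. The small spread was thus not particular to the family.

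**Figure D4:**
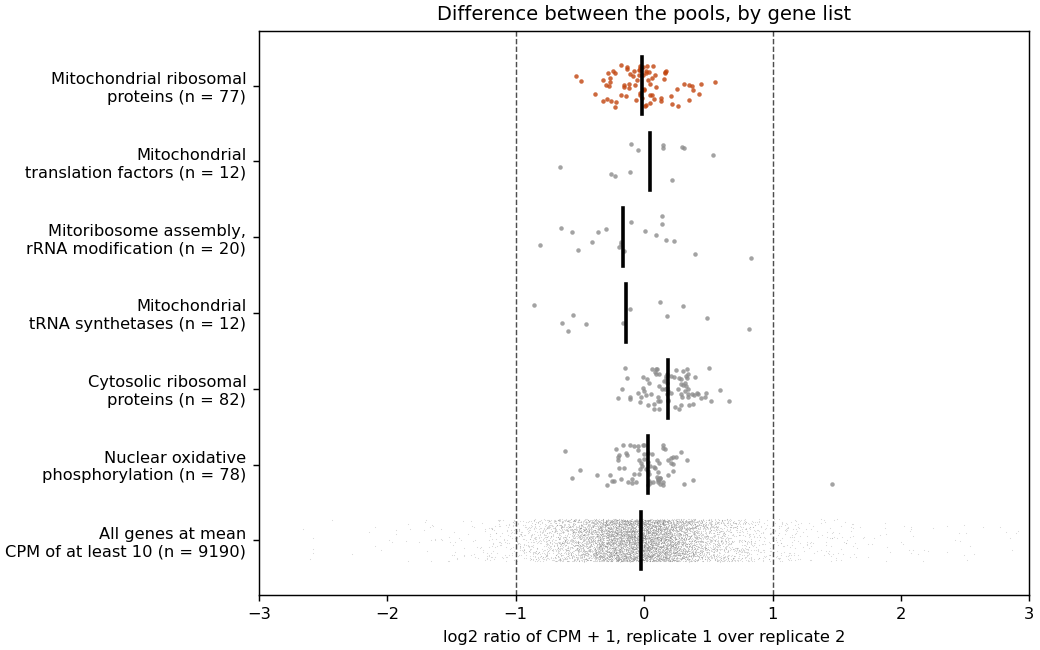
Log2 ratio of CPM + 1, replicate 1 over replicate 2, for each gene (points) with the median of each list (bars) and dashed lines at 2-fold. All 77 mitoribosomal protein genes lie inside the lines around a median of -0.02, and the cytosolic ribosomal protein genes are shifted to 0.19.

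Although no gene reached 1.5-fold after TMM scaling, 43 of 77 had a ratio whose 95% interval, which covers counting error only, left out 1. Of these 43, 19 favoured replicate 1 and 24 favoured replicate 2. No such count is given for other genes, so the 43 cannot be read as a trait of the family. With spike-in scaling 21 of the 24 turned to replicate 1, the exceptions being Mrps35, Mrpl37 and Mrpl36, and with ratios of deposited TPM 2 turned. None of the 19 turned under either. The farthest in the direction of replicate 1 was Mrps11, a small subunit gene, with 1529 reads in replicate 1 and 1159 in replicate 2 and a ratio of 1.47 (1.37 to 1.59). Mrpl16, a large subunit gene with a bacterial counterpart, had a ratio of 1.36 (1.26 to 1.48), and Mrpl52 had 1.35 (1.24 to 1.48). Farthest in the direction of replicate 2 was Mrps35, with 774 reads in replicate 1 and 1260 in replicate 2 and a ratio of 0.687 (0.627 to 0.752). Mrpl37 had 0.706 (0.658 to 0.758) and Mrpl36 had 0.764 (0.722 to 0.810). Both directions held genes of both subunits. These differences exceed the counting error of reads. Without molecular identifiers, that error does not cover the sampling of molecules, and the differences have no replicate of their own.

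Reads of nearly all the genes were assigned without ambiguity. The posterior standard deviation of the read count, which measures how far reads could be placed elsewhere, was 0 in both libraries for 47 genes and at most 1% of the count for 76. The exception was Mrpl23, which encodes a protein at the exit of the peptide tunnel. It was assigned 895 reads with a posterior standard deviation of 89.8 in replicate 1 and 1118 reads with 84.0 in replicate 2. Its processed pseudogene Mrpl23-ps1, on chromosome 2, was assigned 923 and 826 reads and was listed at 96.0 and 76.7 TPM, near the 101 and 112 TPM of Mrpl23 itself. The level of Mrpl23 is therefore uncertain. The other pseudogenes of the family had little, with Mrpl48-ps at 1.19 and 1.43 TPM, Mrps36-ps1 at 4.44 and 1.01, Mrps36-ps2 at 1.31 and 0, and Mrps36-ps3 at 0 in both pools.

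Transcript values, used for replicate 1, include many leading transcripts that are not annotated as coding. The types come from GENCODE M21 whereas the tables were made with M4, so a type may have differed in the annotation used for counting, which bears on every count and level by type given here. For 15 of 77 genes (19.5%) the leading transcript is annotated as other than protein-coding, namely nonsense-mediated decay in 6, processed transcript in 6 and retained intron in 3. The share was 12.2% of the 4177 protein-coding genes at or above 22.18 TPM in this library, 6.1% of cytosolic ribosomal protein genes and 8.2% of oxidative phosphorylation genes. Ranked by reads in place of TPM, a choice made after the values were seen, 9 of 77 genes (11.7%) had a leading transcript of such a type, against 6.4% of the 4177 genes, 6.1% and 5.9%. Counting coding transcripts alone, the median of the family was 61.9 TPM, against 104 TPM for whole genes. The same 2 medians were 46.1 against 55.6 TPM for the 4177 genes. They were 291 against 317 TPM for cytosolic ribosomal protein genes and 640 against 714 TPM for oxidative phosphorylation genes. The leading transcript held a median of 90.7% of the gene's TPM, at least 90% in 40 of the 77 genes and under 50% in 6. Among the 4177 genes the median was 83.9%, with at least 90% in 1838 genes and under 50% in 713. It was 91.0% for cytosolic ribosomal protein genes and 98.9% for oxidative phosphorylation genes.

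Among these genes, the transcript of Mrpl32, whose protein is cleaved in the matrix by the m-AAA protease before it joins the large subunit, was a single entry annotated as nonsense-mediated decay, which took all 140 TPM. Leading transcripts that were not coding held 95.8% of Mrps26, 93.8% of Mrpl23, 89.5% of Mrps14, 81.4% of Mrpl47, 74.0% of Mrps25, 68.9% of Mrpl3, 67.8% of Mrps24 and 63.2% of Mrpl15. In Mrpl13, Mrpl51, Mrps11 and Mrpl20 they held 58.6%, 51.7%, 51.6% and 51.1%, and in Mrpl19 and Mrpl48 they led with 41.2% and 37.3%. The main coding transcript held 43.8% of Mrps11 and 48.3% of Mrpl20.

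Such shares rest on TPM, which weights short transcripts more. In Mrps14, Mrps14-201 of 674 bases (nonsense-mediated decay) was assigned 3603 reads and 313 TPM, whereas the coding Mrps14-203 of 2999 bases was assigned 1896 reads and 32.7 TPM. In 6 of the 15 genes, Mrps25, Mrpl13, Mrpl19, Mrpl20, Mrpl47 and Mrps11, a coding transcript had the most reads, so the order differed between the scales. For Mrps25 the contrast is large. The coding Mrps25-203 of 6073 bases had 1641 reads and 13.7 TPM, and the retained intron form Mrps25-201 of 565 bases had 661 reads and 71.0 TPM. Leading transcripts of the family had a median length of 730 bases where they were not coding and 1061 bases where they were. How reads were divided among overlapping transcripts was not tested.

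**Figure D5:**
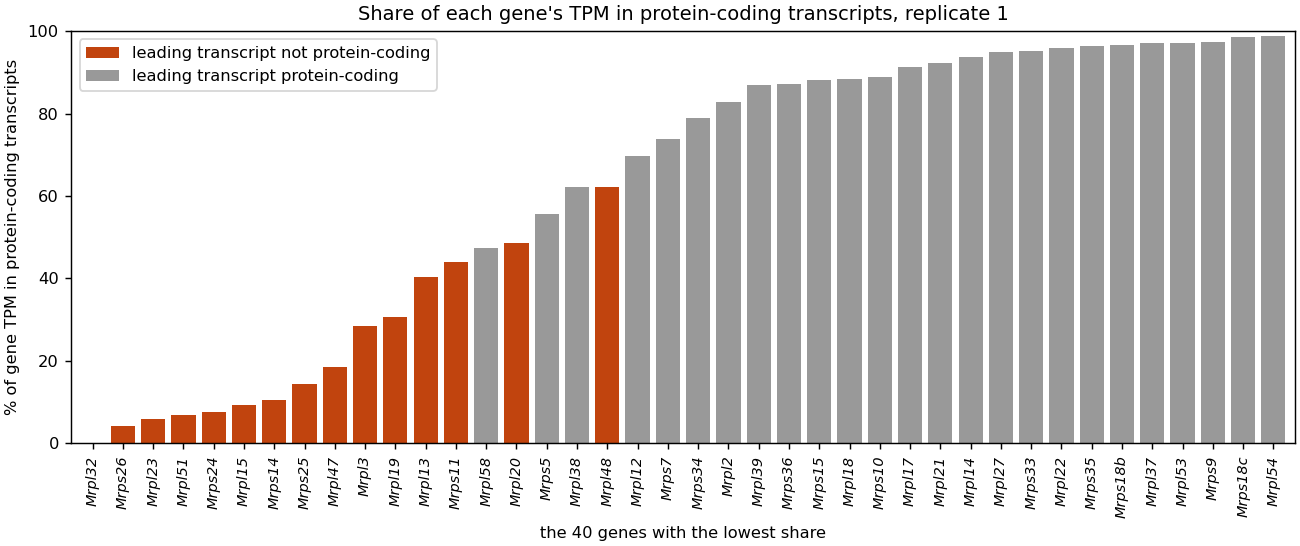
Percentage of each gene's TPM held by protein-coding transcripts in replicate 1, for the 40 genes with the lowest percentage, with genes whose leading transcript is not protein-coding in orange and the others in grey. Mrpl32 is at 0, the other genes with a leading transcript that is not coding reach at most 62.2%, for Mrpl48, and the genes left out are at 98.9% or more.

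Many of the genes start back to back with another gene. The genes lie on 17 chromosomes, with 11 on chromosome 11. A protein-coding gene on the opposite strand started within 1000 bases of 33 of the 78 genes (42.3%), against 10.9% of 21951 protein-coding genes and 19.1% of 4376 such genes at or above the lowest mitoribosomal gene. These make 32 distinct pairs, since 1 pair joins 2 genes of the family. Among the 31 pairs with an outside gene, the starts overlapped in 13. The mitoribosomal gene was usually the more abundant, with 7 of 31 partners (22.6%) above it and 17 (54.8%) under 10 TPM. Over all 21474 protein-coding genes, 6516 in replicate 1 and 6488 in replicate 2 were at 10 TPM or more. At or above the family's median level were 5.7% and 5.4%. With the family this high, a lower partner is the usual outcome, and these counts do not describe a trait of the pairs. Levels within these pairs had r = 0.10 and rho = 0.14, as a description across 31 pairs.

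Some partners also serve mitochondria. Mrps12 starts 172 bases from Sars2, the mitochondrial seryl-tRNA synthetase, in the region printed above, and had 241 and 235 TPM where Sars2 had 6.71 and 7.30 TPM. Mrpl43, a mitochondria-specific large subunit gene, had 104 and 106 TPM, while Twnk, the mitochondrial DNA helicase, had 2.30 and 1.53 TPM. In other pairs the partner was higher. Mrpl47 had 40.4 and 36.1 TPM beside Ndufb5, of respiratory complex I, with 714 and 753 TPM, and Mrpl36 had 124 and 162 TPM beside Ndufs6, of the same complex, with 652 and 635 TPM. Mrps27 had 31.9 and 30.5 TPM beside Ptcd2, with 38.6 and 49.2 TPM.

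Partners outside mitochondria showed the same spread. Mrpl49 had 51.1 and 51.4 TPM beside Fau, a cytosolic ribosomal protein gene, with 491 and 400 TPM. Mrpl32 had 140 and 136 TPM beside the proteasome gene Psma2, with 396 and 396 TPM, and Mrpl18 had 159 and 187 TPM beside the chaperonin gene Tcp1, with 185 and 188 TPM. At the other end, Mrpl27 had 225 and 223 TPM beside the DNA repair gene Eme1, with 0.19 and 0.14 TPM.

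A single pair joins the family to itself. Mrps11 (chr7:78783119-78792989, plus strand, GRCm38) and Mrpl46 (chr7:78775236-78783531, minus strand) overlap by 412 bases at their starts. Mrps11 had 94.0 and 61.0 TPM and Mrpl46 had 87.2 and 75.3 TPM. The log2 ratio between the pools was 0.55 for Mrps11 and 0.21 for Mrpl46, so both were higher in replicate 1. The posterior standard deviations of the read counts were equal for the 2 genes in each library, at 0.49 and 0.93 reads, which is under 1% of either count. The sources used here do not say whether strand was used in counting, and without it reads from the overlap cannot be told apart.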

How the data were processed

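The deposited gene table of each library holds an expected count, the authors' estimate of the reads of a gene before any normalization, and TPM, which per the file headers is scaled over all features, spike-ins among them. For replicate 1 the transcripts were read as well, where a deposited percent states how much of a gene's TPM each transcript has. Texts deposited beside the tables name mm10, GENCODE M4 and alignments to the transcriptome. The sources used here give no aligner, quantifier or strand setting. Without molecular identifiers, intervals cover counting error only.

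GENCODE M21, on the same build (GRCm38), gave symbols, transcript types and coordinates for 42462 of 43346 gene identifiers. Expected counts were rounded, and edgeR 4.0.16 under R 4.3.3 supplied the TMM scaling. Ratios were log2((CPM + 1)/(CPM + 1)) over genes at a mean CPM of at least 10, with exact conditional 95% intervals per gene, and the script was tested on simulated data. DESeq2 1.42.0 size factors, library totals and spike-in totals were alternatives. Levels, lists and promoters were handled with pandas 2.3.3, scipy 1.17.1 and numpy 2.4.6 under Python 3.11.15.

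The genes and the comparison lists were chosen with earlier results of these data known. Genes named with values were the 10 highest and 10 lowest by mean TPM, exceptions known from textbooks, human deficiency genes, genes with uncertain read assignment, a leading transcript that is not coding or a close opposite start, and of each small comparison list the 3 highest and 2 lowest. The genes with the most extreme ratios, and those named outside this rule, were chosen after their values were seen, as were the limit of 1.5-fold and the TPM of coding transcripts alone.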

Additional observations from a re-analysis of the deposited data

How the results depend on the processing

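The differences between gene lists kept their sign under all alternatives run except large minus small subunit, and the count of genes 2-fold or more apart was 0 under all of them. The count at 1.5-fold, 0 after TMM, was 10 with spike-in totals and 2 with deposited TPM, and leading transcripts that are not coding numbered 9 by reads in place of 15. TPM rescaled to genes alone gave a family median of 119 TPM, and coding transcripts alone (replicate 1, added after seeing the data) gave 61.9 TPM. With means in place of medians the differences of log2(TPM + 1) were -0.11 for large minus small subunit, 0.26 for genes with minus without a bacterial counterpart, -2.10 against oxidative phosphorylation genes and 2.06 against translation factors. A pseudocount of 0.1 gave -2.77 against oxidative phosphorylation genes and 2.50 against the factors. Against the oxidative phosphorylation genes the difference was -2.80 over genes at a mean of at least 1 TPM and -2.75 without Mrpl23. The median log2 ratio of the family was 0.013 with library totals, 0.34 with spike-in totals and -0.0042 with deposited TPM. Spike-in scaling moved the log2 ratios of all 77 genes by more than their counting error, and the TPM ratio moved 10. Of the genes whose interval lay below 1, those that turned to replicate 1 with spike-in totals had log2 ratios of 0.132 (Mrpl12), 0.1997 (Mrpl17), 0.229 (Mrpl18), 0.220 (Mrpl2), 0.198 (Mrpl23), 0.176 (Mrpl28), 0.0988 (Mrpl3), 0.0593 (Mrpl30), 0.124 (Mrpl38), 0.218 (Mrpl39), 0.0413 (Mrpl4), 0.135 (Mrpl44), 0.116 (Mrpl51), 0.240 (Mrpl58), 0.0904 (Mrps17), 0.0899 (Mrps18a), 0.0666 (Mrps2), 0.181 (Mrps34), 0.0331 (Mrps5), 0.0771 (Mrps7) and 0.0878 (Mrps9). With deposited TPM, 0.0217 (Mrpl39) and 0.0351 (Mrpl58) turned. Using either library alone gave medians of 104 and 112 TPM, large minus small differences of -0.06 and 0.12, and differences of -1.60 and -1.41 against cytosolic ribosomal protein genes. Ratios cannot be given with a library left out. No paired analysis was possible because there is a single group. Depth gives at least 702 reads per gene, and the spread between animals is not measured by 2 pools with the same donor identifier.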
